A study of Mus musculus with 14 samples.

Results

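The genes described here encode the AMPA-type glutamate receptor and proteins that bind it. They are the 4 pore-forming subunits Gria1, Gria2, Gria3 and Gria4, the transmembrane AMPA receptor regulatory proteins (TARPs) Cacng2 and Cacng7, the cornichon proteins Cnih2 and Cnih3, and the PDZ-domain proteins Grip1 and Pick1. They were taken by name from a table of gene counts, and all 10 of the 10 names were found among its 24100 genes. RNA was measured in mouse cerebellum at postnatal day 21, in Astn2 wild type (WT) mice and their Astn2 knockout (KO) littermates. Every mouse, WT or KO, carried Tg(Pcp2-Egfp-L10a), a bacTRAP transgene in which the Pcp2 promoter, active in Purkinje cells, drives the EGFP-tagged ribosomal protein L10a. Tagged ribosomes were pulled down with anti-GFP antibodies (translating ribosome affinity purification, TRAP), and 3% of the first supernatant was kept as the input, which stands for whole cerebellum. The groups were 4 input WT libraries (1 female, 3 male), 3 input KO (2 female, 1 male), 3 TRAP WT (1 female, 2 male) and 4 TRAP KO (2 female, 2 male). The labels do not say whether each library is a separate animal, so p-values measure the spread between these libraries, which may be technical.

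AMPA receptors carry most fast excitatory transmission in the brain. Each receptor is an assembly of Gria subunits around a cation pore. TARPs and cornichons join it, carry it to the surface and slow its closing, while PDZ proteins hold it at, or remove it from, the synapse. In the cerebellum, Purkinje cells receive parallel fibre and climbing fibre input through AMPA receptors, and removal of these receptors from parallel fibre synapses is the classical form of long-term depression. Granule cells and Bergmann glia, the glial partners of Purkinje cells, also carry AMPA receptors.

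The 4 pore subunits are close relatives, and 2 short stretches of their coding sequence show where they are alike and where they part. The first set shows the pore loop, because the codon in capitals, the Q/R site, decides whether calcium passes. In Gria2 mRNA this genomic glutamine codon is rewritten by RNA editing to read as arginine. The gene counts used here do not read editing. All sequences are GENCODE M21 transcripts on GRCm38, written 5′ to 3′ on the coding strand.
Gria1: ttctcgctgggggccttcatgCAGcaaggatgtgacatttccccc
Gria2: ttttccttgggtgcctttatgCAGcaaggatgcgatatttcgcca
Gria3: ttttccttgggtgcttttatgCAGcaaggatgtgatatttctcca
Gria4: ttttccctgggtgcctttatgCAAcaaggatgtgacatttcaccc
These 45 bases are coding exon sequence at chr11:57243073-57243117 (plus strand, exon 11 of Gria1), chr3:80706890-80706934 (minus strand, exon 11 of Gria2), chrX:41610244-41610288 (plus strand, exon 11 of Gria3) and chr9:4464116-4464160 (minus strand, exon 12 of Gria4). Between 36 and 42 of the 45 bases were identical in each pair, and Gria2 and Gria3 were the closest pair with 42.

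The second set shows the end of the coding sequence, because the last 4 codons (capitals, before the stop codon in lower case) encode the tail that Grip1 and Pick1 bind in Gria2 and Gria3.
Gria1: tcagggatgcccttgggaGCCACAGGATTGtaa
Gria2: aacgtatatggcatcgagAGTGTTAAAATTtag
Gria3: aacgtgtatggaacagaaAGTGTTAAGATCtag
Gria4: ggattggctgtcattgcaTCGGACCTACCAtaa
They lie in the last coding exon of each gene, at chr11:57327614-57327646 for Gria1, chr3:80689106-80689138 for Gria2, chrX:41672432-41672464 for Gria3 and chr9:4420152-4420184 for Gria4. Gria2 and Gria3 share 26 of the 33 bases, 10 of them among the 12 bases in capitals. In the other pairs 7 to 11 of the 33 bases are identical.

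Library totals ran from 18.8 to 54.2 M counts (M for 1000000). Thus 3 counts, the limit that a count of 0 allows, correspond to 0.0553 to 0.160 CPM (counts per 1000000 counts of the library) before scaling. That is a limit of counting error only. Levels below are CPM scaled by trimmed mean of M-values. The 10 genes had between 59 counts (Cnih3) and 17060 counts (Gria4) in a library. Astn2 stood at 88.8 to 104 CPM in input WT and 0.729 to 0.968 in input KO, and at 117 to 146 in TRAP WT and 1.06 to 2.11 in TRAP KO, as the labels have it. All 8 Purkinje cell markers examined (such as Pcp2 and Calb1) were higher in TRAP than in input, and their summed level was 5145 to 5549 CPM in input WT and 72450 to 78026 in TRAP WT. All 8 granule cell markers (such as Gabra6) were lower, with sums of 4709 to 5045 in input WT and 703 to 1245 in TRAP WT. All 8 Bergmann glia and astrocyte markers (such as Gdf10) were lower too, with sums of 1216 to 1722 in input WT and 342 to 442 in TRAP WT, and no marker of any type was at 0 in any group. The markers of oligodendrocytes (6 of 6), inhibitory interneurons (7 of 7), microglia (5 of 5) and endothelium (5 of 5) were lower in TRAP WT as well. In TRAP KO, 3 of the 5 endothelial markers were called lower and 2 were not called, while the other panels gave the same counts as in WT. The third TRAP WT library stood apart. There, 11.2% of 11016 well-measured genes differed over 2-fold from the mean of the other TRAP WT libraries, against 0.172% to 4.35% in the other 6 TRAP libraries and at most 0.245% in inputs.

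**Figure D1:**
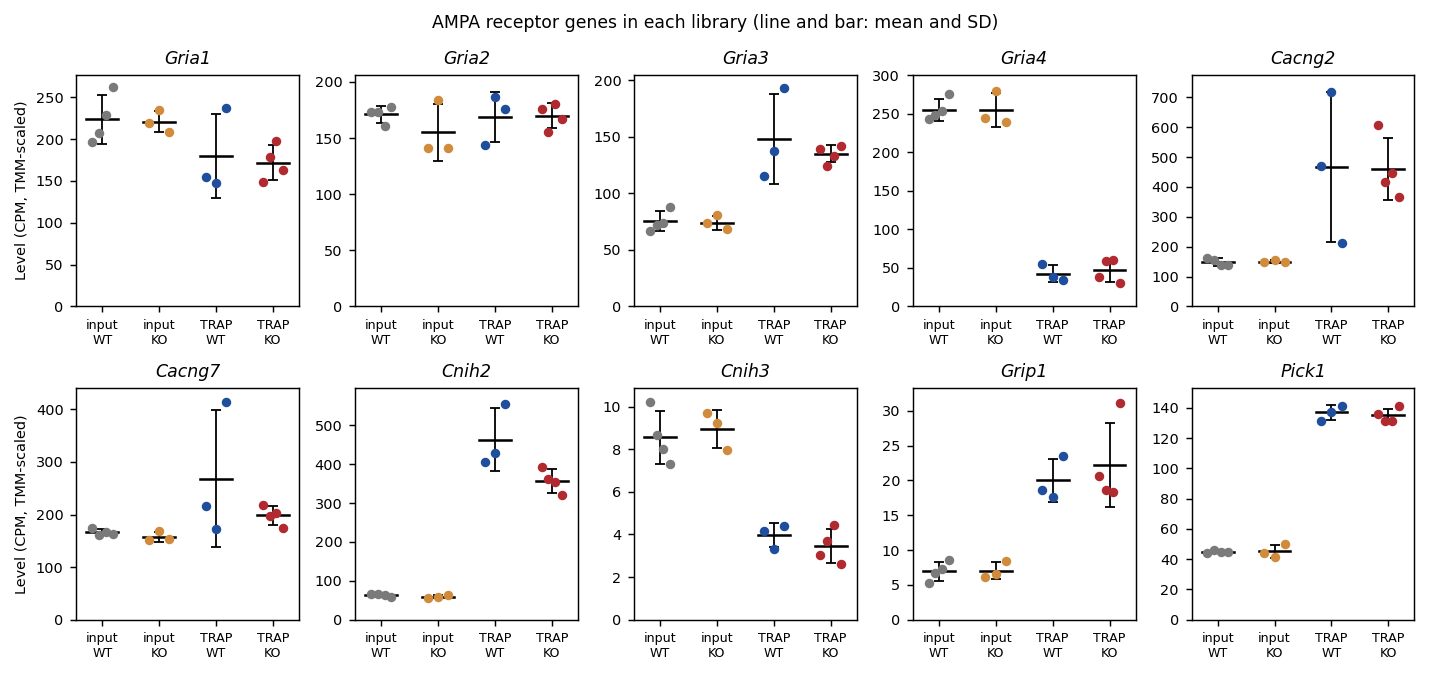
Level of each gene in each of the 14 libraries, in CPM scaled by trimmed mean of M-values (vertical axis from 0 in each panel). Points are libraries, the horizontal line is the group mean and the bar its SD. Gria4 and Cnih3 sit lower in TRAP than in input, while Gria3, Cacng2, Cnih2, Grip1 and Pick1 sit higher in every TRAP library.

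TRAP was compared with input in each genotype to see where these mRNAs stand on Purkinje cell ribosomes. In WT, 6 of the 10 genes were higher in TRAP, 2 were lower and 2 did not pass the test (edgeR quasi-likelihood test, Benjamini-Hochberg adjusted p under 0.05). Over all 16042 genes tested, 75.5% were called in WT, 37.0% higher and 38.5% lower. The 10 genes had a median log2 difference of 0.83, against -0.09 over all genes. In KO, 5 genes were higher, 3 lower and 2 not called, with a background of 75.9% (36.3% higher and 39.6% lower), and the median was 0.58 against -0.11. Libraries of the 2 fractions did not overlap for 7 of the 10 genes in WT, against 72.6% of all genes, and for 9 of the 10 in KO, against 78.0%. All values are relative to a scaling that sets the typical gene near 0. Scaling by library totals instead moves the median of all genes by -0.82 in WT and -0.73 in KO. In bulk samples, fewer cells of a type and less RNA per cell cannot be told apart.

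The pore subunits divided by fraction. Gria4, which forms fast channels and is known from granule cells and Bergmann glia, was the subunit with the lowest TRAP values. Its gene lies at chr9:4417893-4796234. Its level was 243, 248, 254 and 276 CPM in input WT and 245, 280 and 239 in input KO. In TRAP it was 55.5, 38.1 and 34.0 CPM in WT and 38.5, 58.4, 60.5 and 30.5 in KO. Every TRAP library was thus below every input library. Gria4 was 6.15-fold lower in TRAP WT (log2 difference -2.62 ± 0.23 SE, adjusted p = 2.12e-07) and 5.32-fold lower in TRAP KO (-2.41 ± 0.21, adjusted p = 2.45e-07). Only 4.66% of genes had a lower log2 difference than Gria4 in WT. The granule cell markers had a median log2 difference of -2.33 (-3.03 to -2.02) and the Bergmann glia and astrocyte markers -1.72 (-2.66 to -0.99) in the same contrast. Their part in the Gria4 value was not tested.

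Gria3 was the subunit with the clearest excess in TRAP. It lies on the X chromosome (chrX:41400819-41678601) and pairs with Gria2 in many receptors. Input levels were 66.8, 72.4, 74.1 and 87.8 CPM in WT and 73.3, 80.4 and 68.4 in KO. TRAP levels were 115, 137 and 193 CPM in WT and 139, 124, 133 and 142 in KO. All TRAP libraries were above all inputs. The fold was 1.98 in WT (log2 0.98 ± 0.14, adjusted p = 2.96e-05) and 1.78 in KO (0.83 ± 0.15, adjusted p = 1.89e-04). This call needs the scaling named above: by library totals the log2 difference was 0.16 (adjusted p = 0.304) in WT and 0.09 (adjusted p = 0.554) in KO, while against the median gene it was 1.07 in WT and 0.94 in KO.

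Gria2, whose edited subunit makes the channel impermeable to calcium, was near even between fractions. It lies at chr3:80681450-80804227. Input levels were 173, 173, 161 and 178 CPM in WT and 141, 184 and 141 in KO, and TRAP levels 144, 187 and 176 in WT and 176, 155, 180 and 167 in KO. The groups overlapped throughout. The log2 difference was -0.02 in WT (95% confidence interval -0.28 to 0.25, adjusted p = 0.916) and 0.12 in KO (-0.15 to 0.39, adjusted p = 0.401). By library totals, Gria2 was lower in TRAP, by -0.84 (adjusted p = 2.93e-05) in WT and -0.62 (adjusted p = 3.81e-04) in KO, close to the shift of the median gene.

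Gria1 (chr11:57011571-57330244), a subunit of calcium-permeable receptors in Bergmann glia and a main target of activity-driven trafficking in forebrain, gave a small difference. Its WT call turned on 1 library, on the scaling and on the count filter. With every library kept, a filter at a mean of 50 counts called it lower in WT. Input levels were 197, 208, 229 and 263 CPM in WT and 219, 235 and 209 in KO. In TRAP they were 155, 147 and 237 in WT and 149, 179, 198 and 163 in KO. The third TRAP WT library lay within the input range, while the other 6 TRAP libraries were close to or below its lower end. In WT the log2 difference was -0.31 ± 0.16 (adjusted p = 0.0960) with that library and -0.58 (adjusted p = 0.00211) without it. By library totals, with every library kept, it was -1.13 (adjusted p = 3.84e-05) in WT and -1.13 (adjusted p = 3.22e-05) in KO. Most of that is the shift of the median gene, against which Gria1 had -0.22 in WT and -0.28 in KO. Without that change of scaling, the log2 difference in KO was -0.39 ± 0.16 (adjusted p = 0.0380). This call was lost in 7 of 22 alternative fits, where adjusted p reached 0.126. The libraries whose omission ended it were replicates 1 and 4 of TRAP KO, replicate 1 of TRAP WT and replicates 1 and 2 of input KO.

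**Figure D2:**
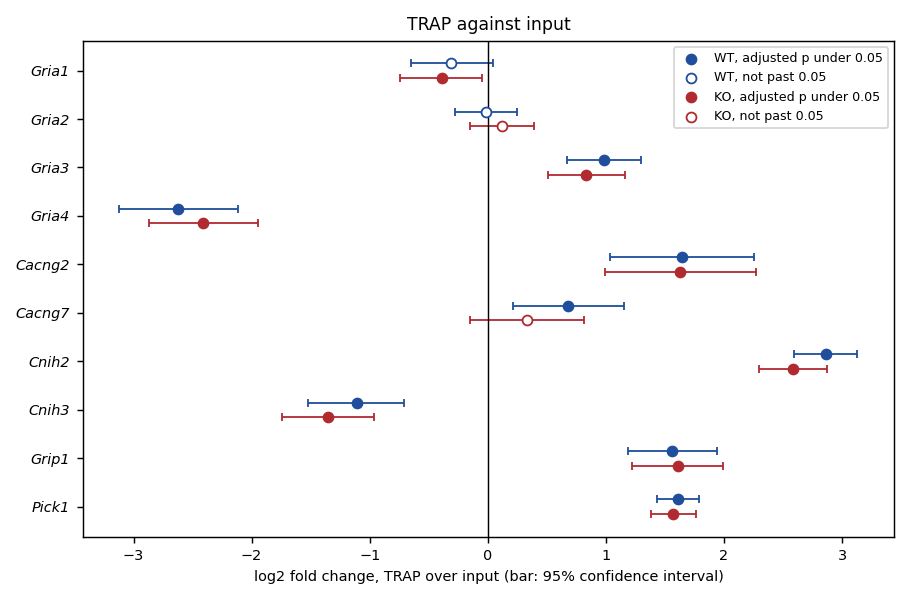
Log2 fold change of TRAP over input (horizontal axis) for each gene, in WT (blue) and KO (red). Bars are 95% confidence intervals and filled points have an adjusted p under 0.05. Cnih2 lies farthest to the right at 2.86 in WT and 2.58 in KO, and Gria4 farthest to the left at -2.62 and -2.41.

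Levels of the 4 subunits can be set beside each other only per length, and the choice of length matters for Gria2, whose longest annotated transcript has 10.37 kb against 5.21 to 5.55 kb for the others. Per kilobase of the longest transcript, Gria4 made up 39.7% ± 1.00 (SD, n = 4) of the summed subunit level in input WT, Gria1 34.1% ± 1.68, Gria2 14% ± 1.10 and Gria3 12.2% ± 0.433. In TRAP WT, Gria1 made up 37.8% ± 3.72 (SD, n = 3), Gria3 33.2% ± 3.08, Gria2 19.5% ± 3.40 and Gria4 9.59% ± 3.87. Gria4 thus stood first among the subunits in whole cerebellum and last on Purkinje cell ribosomes. KO libraries gave similar means, with Gria4 at 40.4% ± 0.207 (n = 3) in input and 10.4% ± 2.79 (n = 4) in TRAP, and Gria3 at 12.3% ± 0.243 and 31.7% ± 3.30. Gria1 and Gria3 ranges overlapped in TRAP. Per kilobase of coding sequence, Gria2 made up 24.1% in input WT and 32.0% in TRAP WT, while Gria3 made up 10.5% and 27.3%. By that length Gria1 (66.1 CPM per coding kilobase), Gria2 (63.8) and Gria3 (55.6) lay close together in TRAP WT and Gria4 (15.7) lay well under them. Which of the first 3 leads is therefore not settled by these counts.

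**Figure D3:**
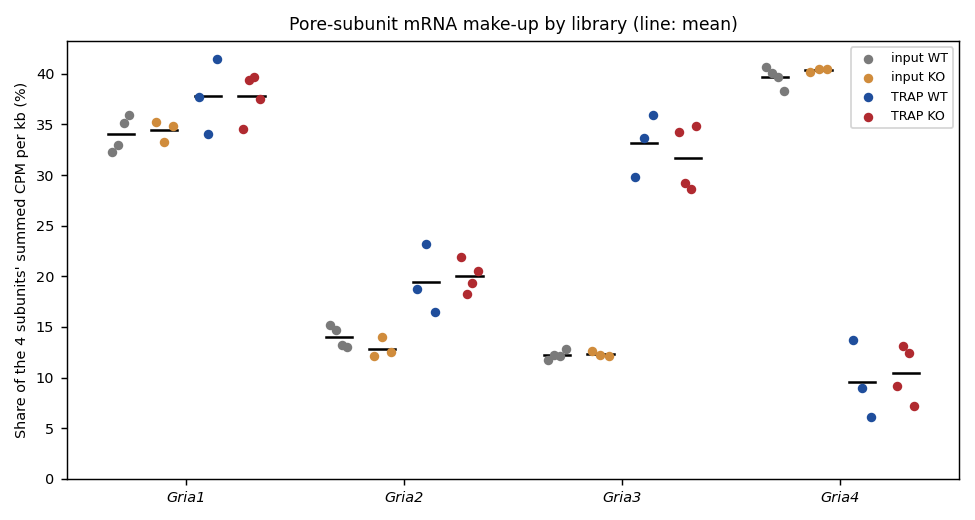
Share of each pore subunit in the summed level of Gria1 to Gria4 per kilobase of longest transcript (percent, vertical axis from 0), by library. Points are libraries and lines are group means. Gria4 falls from about 39.7% of the input WT sum to 9.59% of the TRAP WT sum, and Gria3 goes from 12.2% to 33.2%.

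Of the TARPs, Cacng2 encodes stargazin, which brings AMPA receptors to the surface and is the gene disrupted in the ataxic stargazer mouse (chr15:77991919-78120220). Its input levels were even, at 161, 157, 139 and 137 CPM in WT and 147, 154 and 150 in KO. TRAP levels were 471, 717 and 213 CPM in WT and 608, 417, 446 and 366 in KO. Each TRAP library was above every input, with a wide spread in TRAP WT, where the third library was the lowest. Cacng2 was 3.12-fold higher in TRAP WT (log2 1.64 ± 0.28, adjusted p = 1.28e-04) and 3.09-fold higher in TRAP KO (1.63 ± 0.30, adjusted p = 2.21e-04).

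Cacng7 (chr7:3332027-3368221), a TARP more distant from stargazin and abundant in cerebellum, had a WT call that rested on 1 library. That call was also lost, with every library kept, under a filter at a mean of 50 counts. Input levels were 175, 162, 167 and 163 CPM in WT and 151, 168 and 154 in KO, and TRAP levels 216, 172 and 415 in WT and 219, 197, 203 and 175 in KO. The third TRAP WT library held about as much as the other TRAP WT libraries together. With it, the log2 difference in WT was 0.68 ± 0.22 (adjusted p = 0.0115), and without it 0.15 (adjusted p = 0.169). In KO the value was 0.33, with an adjusted p of 0.190 when that library entered the shared estimate of spread and 0.00264 when it did not. By library totals Cacng7 had the opposite sign, -0.14 in WT and -0.41 in KO, neither past the threshold.

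Among the cornichons, which escort receptors out of the endoplasmic reticulum and slow channel closing, Cnih2 and Cnih3 went in opposite directions. Cnih2 (chr19:5092868-5098521) stood at 66.2, 65.0, 64.7 and 59.1 CPM in input WT and 55.1, 59.5 and 63.6 in input KO. In TRAP it stood at 405, 428 and 555 CPM in WT and 393, 361, 355 and 320 in KO. No library came near the other fraction. Cnih2 had the highest fold of the 10 genes, 7.26 in WT (log2 2.86 ± 0.13, adjusted p = 3.40e-10) and 6.0 in KO (2.58 ± 0.13, adjusted p = 2.06e-09), and in WT 97.4% of all genes had a lower value. Cnih3 (chr1:181350459-181460641) was scarce, at 10.2, 8.69, 8.0 and 7.33 CPM in input WT and 9.68, 9.22 and 7.97 in input KO. Its TRAP levels were 4.17, 3.32 and 4.40 CPM in WT and 3.04, 3.69, 4.46 and 2.61 in KO. All TRAP libraries were below all inputs, 2.16-fold in WT (log2 -1.11 ± 0.19, adjusted p = 1.04e-04) and 2.56-fold in KO (-1.35 ± 0.18, adjusted p = 1.27e-05). As for Gria4, the part of other cell types' RNA in this value was not tested.

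Both PDZ proteins that bind the Gria2 and Gria3 tail were about 3-fold higher in TRAP. Pick1 (chr15:79229140-79249466), which draws receptors from the surface in cerebellar long-term depression, was even within each group. Its input levels were 44.2, 45.8, 45.0 and 44.4 CPM in WT and 43.8, 41.6 and 49.9 in KO, and its TRAP levels 131, 137 and 141 in WT and 136, 131, 131 and 141 in KO. The fold was 3.06 in WT (log2 1.61 ± 0.08, adjusted p = 1.37e-09) and 2.97 in KO (1.57 ± 0.09, adjusted p = 3.77e-09). Grip1 (chr10:119453238-120087267), a multi-PDZ scaffold that anchors receptors and carries them into dendrites, was low in input at 5.29, 6.75, 7.26 and 8.61 CPM in WT and 6.10, 6.55 and 8.39 in KO. TRAP levels were 18.7, 17.7 and 23.5 CPM in WT and 20.7, 18.7, 18.3 and 31.1 in KO, all above the inputs. Its fold was 2.95 in WT (log2 1.56 ± 0.17, adjusted p = 1.92e-06) and 3.05 in KO (1.61 ± 0.18, adjusted p = 2.15e-06). Under scaling by library totals, Gria4, Cacng2, Cnih2, Cnih3, Grip1 and Pick1 kept direction and call, with smaller excesses such as 0.79 for Pick1 and 0.74 for Grip1 in WT.

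The order of the 10 genes per kilobase of longest transcript changed between fractions. The order within a fraction holds for that length only. Per coding kilobase, Gria2 (63.8) was above Gria3 (55.6) in TRAP WT, the reverse of the order below. Cacng2 has 972 coding bases in a longest transcript of 5510, against 828 and 2212 for Cacng7, so the place of Cacng2 also depends on the length. In input WT, Cacng7 led with 75.4 ± 2.65 CPM per kilobase (SD, n = 4), followed by Cnih2 (47.5), Gria4 (46.9), Gria1 (40.4), Cacng2 (27.0), Pick1 (17.5), Gria2 (16.5), Gria3 (14.5), Cnih3 (3.21) and Grip1 (1.28). The ranges of Cnih2 and Gria4, of Cnih2 and Gria1, of Gria4 and Gria1, and of Gria2 and Gria3 overlapped across libraries. Within each input WT library, however, Gria4 was above Gria1 and Gria2 was above Gria3. Cnih2 was above Gria4 except in replicate 4 (44.0 against 50.7), so the order of these 2 is not settled. In that replicate Cnih2 was also below Gria1 (47.4). In TRAP WT, Cnih2 led with 345 ± 60.1 CPM per kilobase (SD, n = 3), ahead of Cacng7 (121), Cacng2 (84.8), Pick1 (53.3), Gria1 (32.4), Gria3 (28.5), Gria2 (16.3), Gria4 (7.81), Grip1 (3.67) and Cnih3 (1.49). There the libraries of Cacng7 and Cacng2, of Cacng2 and Pick1, of Cacng2 and Gria1, and of Gria1 and Gria3 overlapped. In the third TRAP WT library Cacng2 (38.7) was below both Pick1 (55.1) and Gria1 (42.8). TRAP KO gave the same order, with Cnih2 at 266 and Cnih3 at 1.29. Input KO differed from input WT only in that Gria4 (46.8) came before Cnih2 (44.3).

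For each pore subunit, the 3 genes with the most similar pattern were sought among 5946 genes by Pearson r of log2(CPM + 1) over the 14 libraries. The libraries are 7 of each fraction, so any gene that differs between fractions as the subunit does gets a high r. Gria4 was most like Olfm3 (0.998), Igfbp5 (0.998) and Prune2 (0.997). Atp2b2 (0.988), a plasma membrane calcium pump, and Dipk2a (0.987) were among those most like Gria3. Arsb (0.959) and Ganab (0.955) were among those most like Gria1. Gria2, with little difference between fractions, had the weakest likeness, to Tmx3 (0.837), Gm2a (0.733) and Ccdc47 (0.728).

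A further 33 genes of the receptor's assembly, traffic and regulation, in 5 lists, were counted in the same way. Together 13 were higher in TRAP WT, 16 were lower and 4 did not pass, with a median log2 difference of -0.57, against 37.0% of all genes higher, 38.5% lower and a median of -0.09. In TRAP KO 13 were higher and 17 lower, with a median of -0.50, against 36.3%, 39.6% and -0.11 over all genes. The counts of higher genes are near that background. By library totals 5 were higher and 23 lower in WT, and 6 higher and 22 lower in KO. That scaling turned the sign of 6 WT calls, those of Cnih4, Prrt1, Sacm1l, Gripap1, Nptx1 and Prkca. The other TARPs and cornichons divided 2 higher and 4 lower in both genotypes. All 4 other TARPs were lower, among them Cacng4 with a log2 difference of -2.83 in WT and -2.20 in KO, Cacng8, a TARP known from hippocampus, with -2.27 and -1.52, and Cacng5 with -2.01 and -2.18. Cacng4 stood at 11.1 to 12.8 CPM in input WT and 1.07 to 2.12 in TRAP WT. Cnih1, the broadly expressed cornichon, was higher by 1.00 in WT and 1.04 in KO, but only by 0.18 (adjusted p = 0.324) and 0.30 (adjusted p = 0.108) by library totals. Of the 6 TARPs, Cacng2 and Cacng7 were the ones called higher in TRAP WT. The Cacng7 call rested on 1 library, on the scaling and on the count filter.

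**Figure D4:**
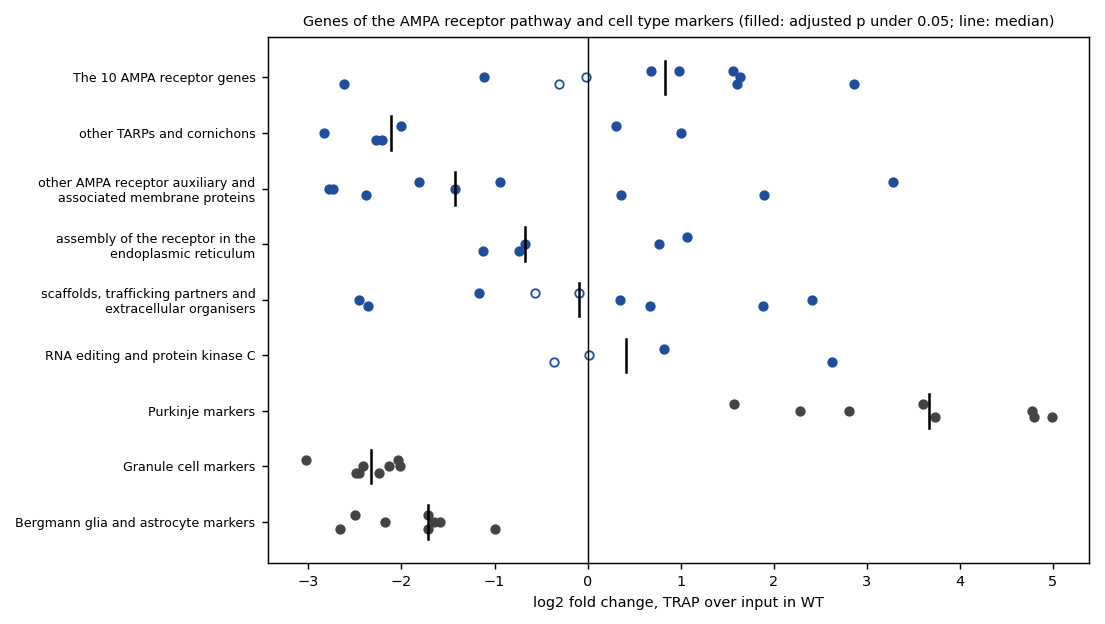
Log2 fold change of TRAP over input in WT (horizontal axis) for the 10 AMPA receptor genes, the 5 lists of partner genes (blue) and 3 panels of cell type markers (grey). Points are genes, filled where the adjusted p was under 0.05, and the vertical line is each list's median. The 10 genes have a median of 0.83, the other TARPs and cornichons -2.11, and Purkinje markers 3.66.

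Other auxiliary and associated membrane proteins were 3 higher and 6 lower of 9 in both genotypes. For this and the lists below, the share over all genes was 37.0% higher and 38.5% lower in WT, and 36.3% and 39.6% in KO. By library totals this list had 2 higher and 7 lower in WT. Syndig1, a transmembrane protein that clusters AMPA receptors at young synapses, had the highest value, a log2 difference of 3.28 in WT and 3.01 in KO (94.6 to 109 CPM in input WT and 671 to 1323 in TRAP WT). Shisa7 had the lowest value in WT, -2.78, and had -2.05 in KO, where Prrt2 was lowest at -2.38. Shisa6, which holds receptors at the postsynaptic density, was higher by 1.90 and 1.56, with TRAP WT levels from 252 to 765 CPM, the highest in the third library. Gsg1l, an auxiliary subunit that slows recovery from desensitization, was lower by a log2 difference of -1.42 and -1.34. Prrt1 passed in WT at 0.36 (adjusted p = 0.0311), a call lost without the third TRAP WT library (0.13, adjusted p = 0.283) and with the replicate number as a block (0.33, adjusted p = 0.0885). The blocked fit also ended the WT call of Cnih4 (0.31, adjusted p = 0.0296 without and 0.0731 with the block).

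Proteins of receptor assembly in the endoplasmic reticulum were 2 higher and 3 lower of 5 in both genotypes, though the KO call of Cpt1c (-0.43, adjusted p = 0.0113) was lost with the replicate number as a block (-0.36, adjusted p = 0.0554). By library totals 0 of them were higher and 3 lower in WT. Abhd6, a lipase that restrains receptor delivery, was higher by 1.07 in WT and 1.22 in KO (0.25 in WT by library totals, adjusted p = 0.0765). Frrs1l, which promotes assembly, was lower, with log2 differences of -1.12 and -1.06. Scaffolds, trafficking partners and pentraxins were 4 higher and 3 lower of 9 in both genotypes, and 2 higher and 6 lower in WT by library totals. Nptx2, a secreted pentraxin that gathers AMPA receptors, was highest at 2.41 and 2.33, and Epb41l1, a cytoskeletal protein that binds the Gria1 tail, lowest at -2.46 and -2.34. Nptx1 was higher by 0.67 and 0.75, but by library totals it had -0.16 (adjusted p = 0.264) and 0.01 (adjusted p = 0.923). Nptxr, the membrane-bound pentraxin, ranged from 33.8 to 391 CPM in TRAP WT and did not pass (-0.57, adjusted p = 0.343), but had -1.60 (adjusted p = 0.0163) without the third library.

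Of the 4 genes for RNA editing and protein kinase C, 2 were higher in TRAP WT and 2 did not pass. By library totals 1 was higher and 2 were lower. Adarb1, the enzyme that edits the Gria2 Q/R codon shown above, had 0.01 in WT (adjusted p = 0.975) and -0.30 in KO (adjusted p = 0.121). Without the third TRAP WT library it had -0.35 (adjusted p = 0.00187) in WT and -0.30 (adjusted p = 0.00180) in KO. Adar, the other editing enzyme, had -0.36 in WT (adjusted p = 0.0531), or -0.68 (adjusted p = 1.16e-04) without that library, and was lower in KO at -0.50 (adjusted p = 0.0103).

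KO was then compared with WT within each fraction, which asks whether loss of Astn2 moved these mRNAs. None of the 10 genes passed the test in TRAP, where 1 of 14145 genes did (0.00707%, Astn2 itself), and none had an unadjusted p under 0.05, against 1.50% of all genes. Log2 differences ran from -0.40 to 0.19. The precision varied by gene. The 95% interval of the KO against WT log2 difference was -0.31 to 0.31 for Pick1, -0.29 to 0.39 for Gria2, -0.49 to 0.34 for Gria3, -0.48 to 0.44 for Gria1 and -0.49 to 0.74 for Gria4. It was -0.31 to 0.70 for Grip1, -0.82 to 0.42 for Cnih3, -0.92 to 0.79 for Cacng2 and -1.08 to 0.28 for Cacng7. Changes within these bounds are not excluded by the TRAP libraries. The Cacng7 value of -0.40 became 0.05 without the third TRAP WT library.

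Cnih2 was the gene whose TRAP libraries did not overlap between genotypes. All 4 KO libraries (320 to 393 CPM) were below all 3 WT libraries (405 to 555 CPM), a pattern found in 4.49% of genes tested. Group means were 357 ± 30.2 in KO and 463 ± 80.8 in WT. The log2 difference of -0.36 ± 0.18 (-0.77 to 0.04) had an unadjusted p of 0.0723 and an adjusted p of 1.000 across all genes (edgeR), so it did not hold up. Without the third TRAP WT library it was -0.22, and with single libraries left out it ran from -0.52 to -0.22. It passed the test in none of 16 alternative fits.

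In input none of the 10 genes passed the test either, where 3 of 15997 genes did (0.0188%), and none had an unadjusted p under 0.05, against 13.7% of all genes. The values ran from -0.20 for Gria2 to 0.19 for Grip1. Libraries of all 10 genes overlapped between genotypes. Intervals were narrower than in TRAP, such as -0.23 to 0.18 for Gria4, -0.19 to 0.13 for Cacng2 and -0.10 to 0.18 for Pick1. Gria2 (-0.45 to 0.04, adjusted p = 0.445) and Cacng7 (-0.27 to 0.02, adjusted p = 0.424) had the lowest adjusted p-values of the 10 genes in input. With single libraries left out, Gria2 ran from -0.31 to -0.07, and its adjusted p was 0.0857 at the lowest, without input KO replicate 2. Of the 33 partner genes none passed in either fraction. In TRAP 0 had an unadjusted p under 0.05, against 1.50% of all genes. In input 9 of the 33 did, a larger share than the 13.7% of all genes, and this was not tested.

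**Figure D5:**
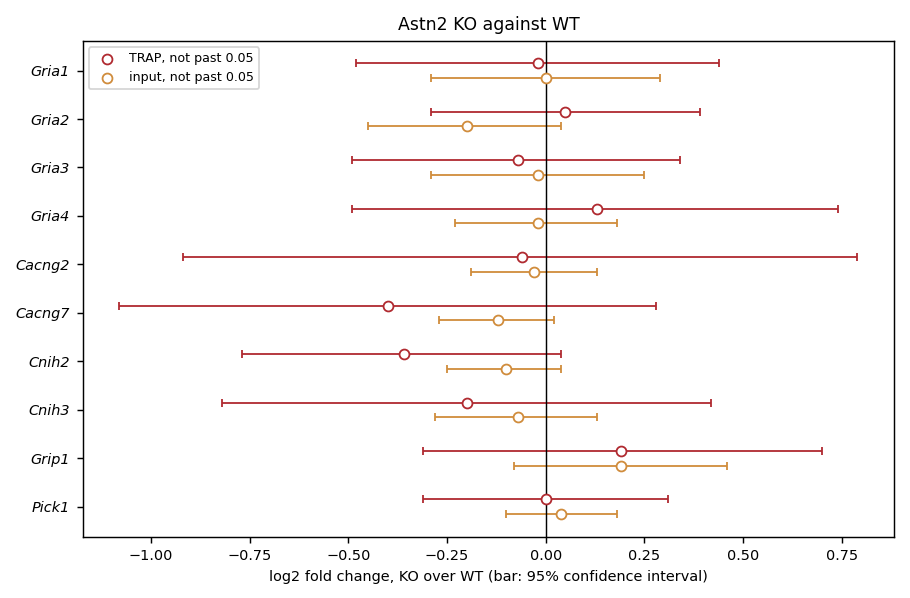
Log2 fold change of KO over WT (horizontal axis) in TRAP (red) and input (orange) for each gene, with 95% confidence intervals. All points are open because none had an adjusted p under 0.05, and every interval includes 0.

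The TRAP against input difference was also compared between genotypes by an interaction term. None of the 10 genes passed (0 of 16042 genes did, 0%, and 430 or 2.68% had an unadjusted p under 0.05), with values from -0.35 for Cacng7 to 0.21 for Gria4. The folds listed above for WT and KO, such as 7.26 and 6.0 for Cnih2, were thus not shown to differ.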

How the data were processed

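Deposited values are raw counts per gene and library, whole numbers under Entrez gene numbers. The submitters' processing notes name Salmon 0.8.2 and the build mm10, without their roles. Strand and annotation are not given in the sources used here, so genes that overlap on opposite strands cannot be told apart. Symbols (24045 of 24100 matched) and gene positions came from RefSeq. Transcript lengths and the printed sequences with their positions came from GENCODE M21 (GRCm38). 2930 genes had no counts.

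Counts were tested with edgeR 4.0.16 in R 4.3.3 (quasi-likelihood F test, two-sided, TMM scaling, filterByExpr, sex as covariate, Benjamini-Hochberg over all genes tested). Genotype was tested within the 7 libraries of a fraction, and fractions and the interaction over all 14. The method was also run on simulated counts, drawn with a common spread for all genes and no deviating library. That run cannot show how the third TRAP WT library affects the fits. Levels are CPM with TMM factors. Alternatives were DESeq2 1.42.0, other scalings, filters and covariates, a replicate block and each library left out. Leaving out TRAP WT replicate 3 and TRAP KO replicate 4 together was added after seeing the data. Replicates of a group differed by more than sampling noise (chi-square per degree of freedom 8.63 to 267 over 18 pairs).

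The labels number replicates alike in both fractions. Same-numbered input and TRAP WT libraries deviated together (correlations 0.343, 0.280 and 0.107), so a blocked value is given where it changes a WT call. All 10 genes were named. Of the partner lists, fixed names and each list's highest and lowest gene in WT were named. Genes, lists and markers were chosen with earlier results of these data known. A few genes that these rules would name are not reported here.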

Additional observations from a re-analysis of the deposited data

How the results depend on the processing

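Gria4, Cacng2, Cnih2, Cnih3, Grip1 and Pick1 kept direction and call between TRAP and input in all 22 alternatives, in both genotypes. Scaling by library totals gave 4 genes higher and 4 lower in TRAP WT, in place of 6 and 2 (2 to 3 lower with single libraries left out), and 4 and 4 in KO, in place of 5 and 3. It turned Cacng7 (-0.14 in WT, -0.41 in KO), Gria2 in KO (-0.62) and Astn2 in WT (-0.35). A filter at a mean of 50 counts gave 5 genes higher and 3 lower in TRAP WT, adding Gria1 and losing Cacng7. It turned Gria2 in KO (-0.07). Gria2 in WT ran from -0.15 to 0.10 with single libraries left out. KO against WT called 3 genes in TRAP with DESeq2's Wald test, 2 with all 14 libraries fitted, and 1 to 2 with a library left out. In input it called 294 with the Wald test, 5 with DESeq2 size factors, 23 without a filter and 1 to 158 with a library left out, the highest without the second input KO library. The interaction called 1 with the Wald test. None of the 10 genes was among the calls of any of these fits. What causes them was not tested.

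Genotype values near 0 changed sign without passing the test. In TRAP, library totals gave Gria1 0.04 and Pick1 0.05, other filters gave Pick1 7.83e-04 and 2.62e-04, and leaving out TRAP WT replicate 3 and TRAP KO replicate 4 together gave Gria1 0.23, Gria3 0.10, Cacng7 0.07 and Cnih3 0.01. Leaving out single libraries gave ranges of -0.16 to 0.19 for Gria1, -0.04 to 0.10 for Gria2, -0.23 to 0.11 for Gria3, -0.21 to 0.36 for Gria4, -0.37 to 0.51 for Cacng2, -0.62 to 0.05 for Cacng7, -0.05 to 0.34 for Grip1 and -0.02 to 0.03 for Pick1. In input, Gria1 had 0.01 under the Wald test, DESeq2 size factors and no filter, and 0.0010 under a filter at a mean of 50 counts. All 14 libraries gave Gria1 0.05, Gria3 0.05 and Cnih3 8.34e-04. No sex covariate gave Cacng2 0.0014, Cnih3 0.05, Grip1 -0.01 and Pick1 -0.01. Single libraries left out gave -0.19 to 0.23 for Gria1, -0.22 to 0.22 for Gria3, -0.15 to 0.13 for Gria4, -0.08 to 0.03 for Cacng2 and -0.03 to 0.12 for Pick1. The interaction for Gria1 was 0.0026 by library totals, 0.21 without both libraries and -0.21 to 0.18 with 1 left out, and for Cacng7 0.22 and -0.57 to 0.18.

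With the replicate number as a block, the TRAP against input WT count was 11593, with 6 of the 10 genes higher and 2 lower, and the genotype counts were 1 in TRAP and 1 in input. The block turned Cacng2 (0.23) and Grip1 (-0.04) in TRAP and Gria1 (0.06), Gria3 (0.05), Gria4 (0.02) and Pick1 (-0.01) in input, and gave, in TRAP against input KO, adjusted p-values of 0.0653 for Gria1 and 0.0554 for Cpt1c, which ended both calls. Same-numbered KO libraries correlated by 0.232, 0.291 and -0.168, and KO and WT libraries of a fraction by -0.226 to 0.116, so pairing of these libraries is shown neither by the labels nor by every pair. Besides the calls given above, the block changed no WT call of the 10 genes or the partner lists. Subunit shares by coding length and without division by length were 30.5% and 30.8% for Gria1 in input WT and 32.5% and 33% in TRAP WT, 24.1% and 23.7% and then 32.0% and 31.7% for Gria2, 10.5% and 10.3% and then 27.3% and 27.2% for Gria3, and 35.0% and 35.2% for Gria4 in input WT. Cnih3, with 59 to 562 counts, is the gene most limited by depth.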
